A study of Mus musculus with 8 samples.

Results

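The Fanconi and homologous recombination genes are a set of 32 genes whose products repair DNA crosslinks and broken replication forks, read here in mouse embryos exposed to hydroxyurea. They were taken as a fixed list of symbols, and every array probe whose RefSeq accession belongs to one of them was kept. This gave 42 probes for 31 of the 32 genes, out of 55681 probes on the array and 20141 symbols matched to it. Rad51c had no probe by this rule and is not analysed here. All but 1 of the 42 probes were well above background on all 8 arrays, so 41 probes of 31 genes were tested. The exception was Wrn probe A_52_P478236, which was well above background on 0 of 8 arrays and was left out.

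The RNA was total RNA of whole CD-1 embryos (an outbred mouse stock) on gestational day 9. The dams carrying them had received 400 mg/kg hydroxyurea or saline into the peritoneum 3 h before the embryos were taken, and each treatment has 4 samples. Each sample was labelled with Cy3 and read on a one-colour Agilent array. The design counts 4 separate experiments, yet no label ties a sample to an experiment, litter or dam, so the p-values measure the spread between these samples. All values are log2 of the processed signal minus the 75th percentile of the same array, called the scaled log2 signal, and a difference is the hydroxyurea mean minus the saline mean. Levels of different probes are not compared with each other.

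In a whole embryo, fewer cells of a type and less RNA per cell cannot be told apart. The 8 arrays correlated at 0.957 to 0.986 and had between 48.7% and 62.3% of spots well above background, with hydroxyurea 3 the lowest. The arrays lay on 2 slides, the first with replicates 1 and 2 of both treatments and the second with replicates 3 and 4. Of 16 markers of embryonic tissues 15 were well above background on all arrays, and the myogenic factor gene Myf5 was on none. As a check of the exposure, the p53 target Ccng1 stood at 3.83 to 4.18 on the hydroxyurea arrays and at 0.70 to 0.92 on the saline arrays, a difference of 3.20. The cell cycle inhibitor gene Cdkn1a, another p53 target, differed by 3.02.

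Hydroxyurea inhibits ribonucleotide reductase and so starves replication of deoxynucleotides, which stalls forks. In the Fanconi pathway a core complex of proteins carries a ubiquitin ligase that marks the paired FANCD2 and FANCI proteins at a blocked fork, and nucleases and recombination proteins then act there. In homologous recombination the broken end is trimmed to a single strand, BRCA2 with its partners prepares that strand, further factors carry out strand exchange, and helicases and nucleases take the joined molecules apart. Loss of many of these genes causes Fanconi anaemia or cancer predisposition in humans, and fast-dividing embryonic tissue is known to depend on several of them.

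Fancb, Bard1 and Rad51d each had 1 probe that rose, by 1.64-fold, 1.71-fold and 2.04-fold, and no probe of the set passed the test in the other direction. By limma with Benjamini-Hochberg adjustment over all 30759 tested probes, 3 of 41 member probes were called higher at an adjusted p under 0.05, which is 7.32% beside 2.52% of all probes (6.82% in either direction). The count called lower was 0, beside 4.29% of all probes, and at an unadjusted p under 0.05 there were 13 member probes higher (31.7%, beside 11.4% of all probes) and 1 lower (2.44%, beside 13.3%). The other 38 probes did not pass. The differences lay between -0.91 and 1.03 with a median of 0.27, beside a median of 0.02 over all tested probes. Of the 41 probes 33 (80.5%) were above 0, beside 52.2% of all probes. Over the 24829 probes well above background on all 8 arrays, as these 41 were, the median was 0.05 and 55.9% were above 0. Centring each array on its median moved the median of all probes to 0.14 and that of the members to 0.39, so that all differences are relative to the scaling.

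The hydroxyurea and saline arrays did not overlap for 10 member probes. In 9 of them (22%) the hydroxyurea arrays were all higher, beside 7.37% of all probes, and in 1 they were all lower, beside 8.47% of all probes. The 9 were the 3 called probes with the second probe of Rad51d and with probes of Fancm, Brip1, Rad54l, Exo1 and Rmi1.

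**Figure D1:**
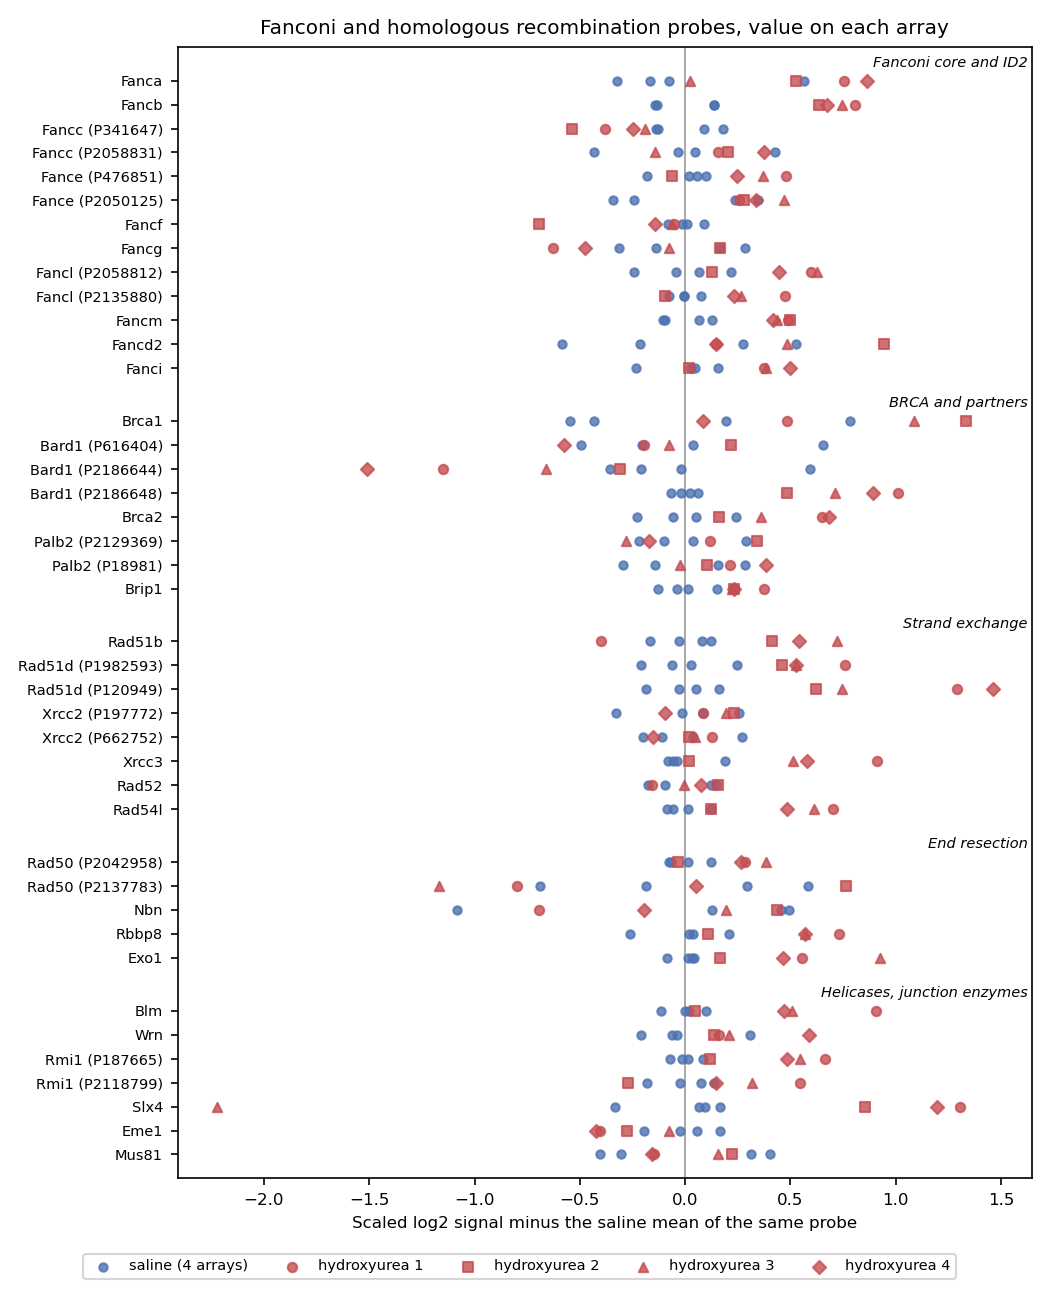
Scaled log2 signal of each of the 41 tested probes on the 8 arrays, minus the saline mean of the same probe, with saline arrays in blue and each hydroxyurea array in red with its own symbol. Most hydroxyurea symbols lie right of 0, the square of hydroxyurea 2 lies leftmost of the 4 in 20 of 41 rows, and the triangle of hydroxyurea 3 stands far left for Slx4.

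The array hydroxyurea 2 stood apart among the treated samples. It was the lowest hydroxyurea array for 20 of the 41 probes and the highest for 12. The median distance of the member probes from their saline means was 0.16 on hydroxyurea 2, against 0.37, 0.32 and 0.33 on hydroxyurea 1, 3 and 4. Over all tested probes the median distance was also lowest on hydroxyurea 2, at -0.04, against 0.08, 0.05 and 0.01. Without it, 11 member probes (26.8%) were called higher, beside 7.2% of all probes, and 1 was called lower, beside 8.61% of all probes. The 8 further higher calls were probes of Fancl, Rad51d, Xrcc3, Rad54l, Rbbp8, Exo1, Blm and Rmi1. Hydroxyurea 2 was the lowest treated array for each of them, and leaving out the lowest array always raises the treated mean. The array was picked from these same values, so calls made without it are no separate support for a rise, here or below. The member count was 0 without hydroxyurea 1, hydroxyurea 4, saline 1 or saline 3, beside 1.03%, 0.839%, 1.31% and 1.09% of all probes. There, 8, 9, 10 and 13 member probes were higher at an unadjusted p under 0.05 in limma (19.5% to 31.7%, beside 8.04% to 9.51% of all probes). The count was 1 without saline 2 (beside 1.19%), 2 without saline 4 (1.43%) and 4 without hydroxyurea 3 (1.62%, or 4.85% in either direction).

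Promoters of 24 of the 32 genes were found in a RefSeq table of build GRCm38.p6, as windows from 250 bases before the gene start to 50 after it, and both strands were searched. At least one of the E2F-type words TTTGGCGC, TTTCCCGC and TTTCGCGC occurred in a window of 5 of the 24 genes (20.8%), beside 2.12% of all 27025 genes and 2.76% of 17491 coding genes with a window. A gene with several starts has several windows, 2 for Rad51b, Rad51c, Rad54l and Rmi1, and was counted once. The genes were Bard1, Brca2, Fancg, Rad51c and Rmi1, and TTTCCCGC alone was in 4 of them (16.7%, beside 1.24% of all genes). CCAAT, the NF-Y type word, was in 15 of 24 (62.5%, beside 41.1%), and TTTGAA, the CHR type word, in 3 of 24 (12.5%, beside 20.2%). A match is a description of letters and not a bound site. The 250 bases before the start are shown for 3 genes with TTTCCCGC, whose probes differed in sign, and for Fancb, which had a called probe and no such word. Bard1 lies on the minus strand at chr1:71102973-71103222, Brca2 on the plus strand at chr5:150522371-150522620, Fancg on the minus strand at chr4:43010302-43010551, and Fancb on the plus strand at chrX:164980342-164980591. Each is written 5′ to 3′ along its gene's strand, and capitals mark the matches.
Bard1: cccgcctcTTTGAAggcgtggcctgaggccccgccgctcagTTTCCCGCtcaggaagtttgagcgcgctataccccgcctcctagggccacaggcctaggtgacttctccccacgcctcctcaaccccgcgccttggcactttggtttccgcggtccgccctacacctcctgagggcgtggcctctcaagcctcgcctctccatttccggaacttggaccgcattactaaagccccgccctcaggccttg
Brca2: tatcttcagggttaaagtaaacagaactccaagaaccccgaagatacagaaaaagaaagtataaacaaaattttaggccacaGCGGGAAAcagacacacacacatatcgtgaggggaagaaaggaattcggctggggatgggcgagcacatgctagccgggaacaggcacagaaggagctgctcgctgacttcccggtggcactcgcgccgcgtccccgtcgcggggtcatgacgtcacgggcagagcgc
Fancg: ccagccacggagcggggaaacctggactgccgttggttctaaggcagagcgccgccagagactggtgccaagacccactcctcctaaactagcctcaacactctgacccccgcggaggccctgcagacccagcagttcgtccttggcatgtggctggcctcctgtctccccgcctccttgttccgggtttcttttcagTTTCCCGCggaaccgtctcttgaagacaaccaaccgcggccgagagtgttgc
Fancb: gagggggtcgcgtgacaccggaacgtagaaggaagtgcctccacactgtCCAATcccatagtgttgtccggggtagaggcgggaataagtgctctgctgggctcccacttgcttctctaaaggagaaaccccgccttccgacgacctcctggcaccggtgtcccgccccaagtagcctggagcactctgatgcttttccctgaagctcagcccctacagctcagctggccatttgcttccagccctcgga
In Bard1 the capitals are TTTGAA at 242 and TTTCCCGC at 209 bases before the start. In Brca2 and Fancg the match begins 168 and 52 bases before it, in Brca2 on the opposite strand as GCGGGAAA. In Fancb CCAAT begins 201 bases before the start. The differences of these genes' probes were 0.77, -0.91 and -0.16 for Bard1, 0.46 for Brca2, -0.25 for Fancg and 0.72 for Fancb.

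The Fanconi core complex and its substrates gave 13 tested probes for 10 genes, of which 1 was called higher and 0 lower, with a median difference of 0.32. Fancb, a core subunit that holds the ligase module together, was read by probe A_52_P208613 (NM_175027). Its scaled log2 signal was 1.83, 1.66, 1.77 and 1.70 on hydroxyurea 1 to 4 and 0.89, 1.16, 0.88 and 1.16 on saline 1 to 4. All treated arrays lay above all saline arrays, and the difference was 0.72 (SE 0.14, 95% interval 0.40 to 1.04, adjusted p = 0.0197). It was 0.72 on slide 1 and 0.71 on slide 2, and the call was lost without hydroxyurea 1 or 4 or saline 1 or 3.

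Fancm, the translocase that anchors the core complex to DNA, stood at 0.54, 0.55, 0.49 and 0.47 on the hydroxyurea arrays and at 0.18, -0.04, -0.05 and 0.12 on the saline arrays. The groups were narrow and did not overlap, but the difference of 0.46 (SE 0.13) missed the threshold at an adjusted p of 0.0746, and passed it with quantile normalization (0.0432). Fancl, the ligase subunit, has 2 probes. A_55_P2058812 read 2.84, 2.37, 2.87 and 2.69 against 2.31, 2.0, 2.46 and 2.20, a difference of 0.45 (SE 0.17, adjusted p = 0.149), in which only hydroxyurea 2 lay within the saline range. Without that array it was called, at 0.56. The other Fancl probe, A_55_P2135880, differed by 0.22 (adjusted p = 0.435).

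Fancc, a core subunit, gave 2 probes of opposite sign. A_51_P341647 read -0.40, -0.56, -0.21 and -0.27 on the hydroxyurea arrays and -0.16, 0.07, 0.16 and -0.15 on the saline arrays. It was the only member probe with all treated arrays below all saline arrays, by a narrow gap, and its difference of -0.34 (SE 0.15) had an adjusted p of 0.208. A_55_P2058831, annotated to another Fancc transcript, differed by 0.15 (SE 0.21, adjusted p = 0.702) with overlapping groups.

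The substrate pair did not pass. Fanci differed by 0.32 (SE 0.16, adjusted p = 0.263) and Fancd2 by 0.43 (SE 0.28, adjusted p = 0.373), with hydroxyurea 2 the highest array for Fancd2 at -0.40 and the lowest treated array for Fanci at 1.81. Fanca, a core subunit, differed by 0.54 (SE 0.25, adjusted p = 0.215), with saline 4 at 2.28 inside the treated range of 1.74 to 2.58. The 2 probes of Fance, which links the core to FANCD2, differed by 0.26 and 0.33 (adjusted p 0.358 and 0.311). The core subunit genes Fancf and Fancg differed by -0.24 and -0.25 (adjusted p 0.440 and 0.517). For Fancf, 3 hydroxyurea arrays lay at 1.48 to 1.57 beside 1.54 to 1.71 on saline, and hydroxyurea 2 stood at 0.93. The difference was -0.09 without it.

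BRCA1, BRCA2 and their partners gave 8 tested probes for 5 genes, of which 1 was called higher and 0 lower, with a median difference of 0.22. Bard1, the partner of BRCA1 in a ubiquitin ligase, has 3 probes, all annotated to the same RefSeq transcript, NM_007525. Probe A_55_P2186648 read 3.08, 2.55, 2.78 and 2.96 on hydroxyurea 1 to 4 and 2.05, 2.13, 2.0 and 2.09 on saline 1 to 4. The saline arrays were tightly grouped and every treated array lay above them, and the difference was 0.77 (SE 0.16, adjusted p = 0.0205).

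The other Bard1 probes did not follow it. A_55_P2186644 read -1.85, -1.01, -1.36 and -2.21 against -0.72, -0.11, -0.91 and -1.06, a difference of -0.91 (SE 0.30, adjusted p = 0.104). Only hydroxyurea 2 overlapped the saline range, and without it the probe was called lower, at -1.11 (adjusted p = 0.0381). A_52_P616404 read -2.68, -2.27, -2.56 and -3.06 against -2.45, -2.98, -1.83 and -2.69, a difference of -0.16 (SE 0.27, adjusted p = 0.761) with the groups mixed. The call on A_55_P2186648 was lost without any 1 of 6 arrays, the exceptions being hydroxyurea 2 and 3, and with the mean of the 3 probes the gene's difference was -0.10. The 3 probes thus gave no single direction for Bard1.

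Brca1, the other subunit of that ligase, read -2.18, -1.33, -1.58 and -2.58 on the hydroxyurea arrays and -1.88, -3.10, -2.47 and -3.21 on the saline arrays. Its difference was 0.75 (SE 0.36), or 0.41 with normexp background correction. The arrays spread widely, saline 1 and 3 lay among the treated values, and the adjusted p was 0.233. Brca2, a mediator of strand exchange, read 2.89, 2.40, 2.60 and 2.92 against 2.01, 2.18, 2.29 and 2.48. Its difference was 0.46 (SE 0.18, adjusted p = 0.149), and hydroxyurea 2 was the 1 treated array under the highest saline array.

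Palb2, which bridges BRCA1 and BRCA2, differed by 0.00 and 0.17 on its 2 probes (adjusted p 0.996 and 0.594). The 95% intervals were -0.42 to 0.43 and -0.23 to 0.57, so that changes within these bounds were not excluded for Palb2. The helicase gene Brip1 read -1.61, -1.75, -1.76 and -1.75 on the hydroxyurea arrays and -2.11, -2.02, -1.97 and -1.83 on the saline arrays. All treated arrays lay above all saline arrays, and the difference of 0.27 (SE 0.13) did not pass (adjusted p = 0.258).

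**Figure D2:**
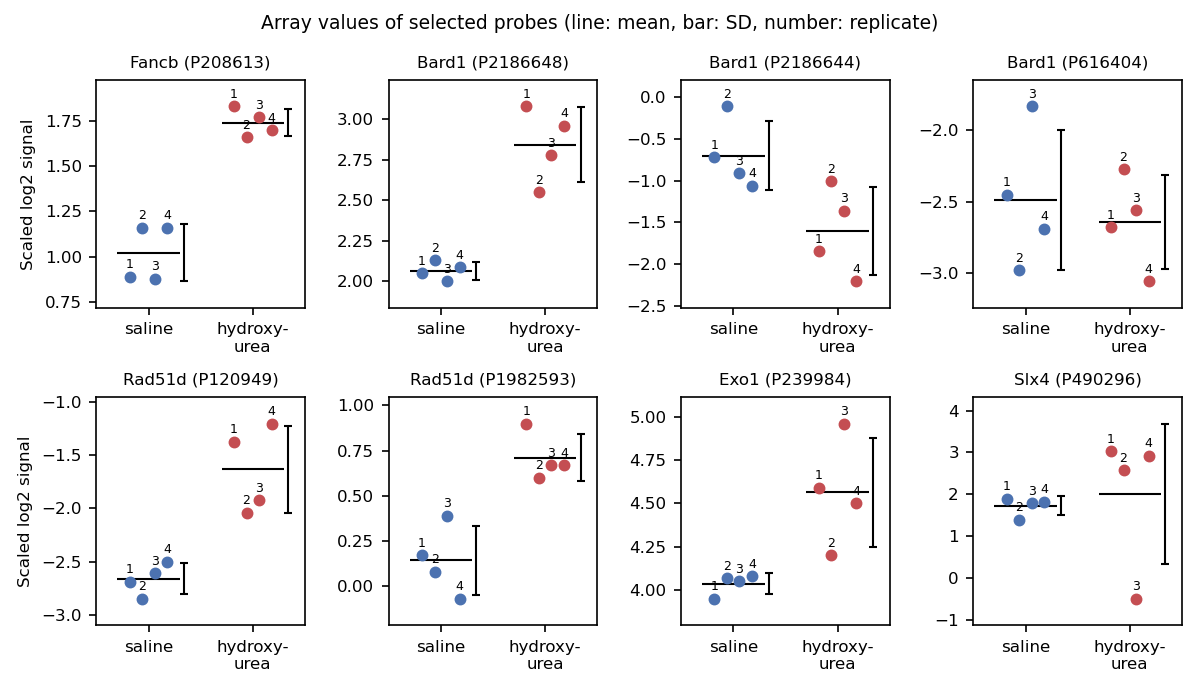
Scaled log2 signal of 8 probes on each array, with the replicate number over each point, a line at the group mean and a bar of 1 SD. The called probes of Fancb, Bard1 and Rad51d show separate groups, the other Bard1 probes lie lower or mixed on hydroxyurea, and Slx4 has 1 treated array at -0.50.

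The strand exchange factors gave 8 tested probes for 6 genes, all with a difference above 0. Of these 1 was called higher and 0 lower, and the median difference was 0.40. Rad51d, a subunit of a complex that supports strand exchange, was the member with the largest difference and had 2 probes of the transcript NM_011235. Probe A_66_P120949 read -1.37, -2.04, -1.92 and -1.20 on the hydroxyurea arrays and -2.69, -2.85, -2.61 and -2.50 on the saline arrays. The treated arrays were all higher, and fell into a higher pair, replicates 1 and 4, and a lower pair. The difference was 1.03 (SE 0.21, 95% interval 0.55 to 1.52, adjusted p = 0.0236), with 1.07 on slide 1 and 1.0 on slide 2. The call was lost without hydroxyurea 1 or 4 or saline 1, 2 or 3.

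The second Rad51d probe, A_55_P1982593, read 0.90, 0.60, 0.67 and 0.67 against 0.17, 0.08, 0.39 and -0.07. Here too every treated array lay above every saline array, the difference was 0.57 (SE 0.15) and the adjusted p was 0.0618, or 0.0399 without hydroxyurea 2 and 0.0350 with quantile normalization. Rad51d was thus the member gene with 2 probes whose groups did not overlap, both higher.

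Xrcc3, another strand exchange factor, read 2.08, 1.19, 1.68 and 1.75 on the hydroxyurea arrays against 1.13, 1.09, 1.36 and 1.11 on saline, a difference of 0.51 (SE 0.20, adjusted p = 0.159). Hydroxyurea 2 lay with the saline arrays, and without it the difference was 0.67 (adjusted p = 0.0284). Rad54l, a motor protein of strand exchange, read 2.66, 2.08, 2.57 and 2.44 against 1.97, 1.90, 1.87 and 2.08. The groups touched without overlapping, hydroxyurea 2 and saline 4 being equal to 2 decimals, and the difference was 0.48 (SE 0.16, adjusted p = 0.114; 0.60 and 0.0247 without hydroxyurea 2). Rad51b, of the same group, differed by 0.32 (SE 0.24, adjusted p = 0.454), with hydroxyurea 1 at -0.90 under all saline arrays and the other treated arrays at -0.09 to 0.22 above them. Values near 0 were found for Xrcc2, of the same group, at 0.10 and 0.01 on 2 probes, and for the annealing factor gene Rad52, at 0.02 (95% interval -0.32 to 0.35).

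The end resection genes gave 5 tested probes for 4 genes, with 0 called in either direction and a median difference of 0.22. Exo1, an exonuclease that lengthens the single strand, read 4.59, 4.20, 4.96 and 4.50 on the hydroxyurea arrays and 3.95, 4.07, 4.05 and 4.08 on the saline arrays. All treated arrays were higher, hydroxyurea 2 by the least, and the difference was 0.53 (SE 0.18, adjusted p = 0.112; 0.65 and 0.0301 without hydroxyurea 2). Rbbp8, which encodes CtIP, the factor that starts resection, read 4.18, 3.56, 4.02 and 4.02 against 3.19, 3.66, 3.49 and 3.47. Its difference was 0.50 (SE 0.18, adjusted p = 0.135), with hydroxyurea 2 inside the saline range, and 0.63 (adjusted p = 0.0334) without that array. Nbn and Rad50, subunits of the complex that senses broken ends, did not pass. Nbn differed by -0.07 with a wide spread (SE 0.38), and the 2 Rad50 probes by 0.22 (SE 0.15) and -0.29 (SE 0.43).

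The helicases and junction enzymes gave 7 tested probes for 6 genes, with 0 called in either direction and a median difference of 0.27. Blm, the helicase of the complex that dissolves joined molecules, read 3.76, 2.90, 3.36 and 3.32 on the hydroxyurea arrays and 2.87, 2.95, 2.85 and 2.74 on the saline arrays. The difference was 0.48 (SE 0.19, adjusted p = 0.157), with hydroxyurea 2 among the saline values, and 0.63 (adjusted p = 0.0345) without it. Rmi1, a subunit of the same complex, read 2.52, 1.97, 2.40 and 2.34 against 1.78, 1.94, 1.87 and 1.84 on probe A_51_P187665, with no overlap and a difference of 0.45 (SE 0.16, adjusted p = 0.120; 0.56 and 0.0253 without hydroxyurea 2). Its other probe differed by 0.19 (adjusted p = 0.599). Wrn, another helicase, differed by 0.27 (SE 0.17, adjusted p = 0.369) on its measured probe.

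Slx4, a scaffold that holds several nucleases, depended on 1 array. It read 3.03, 2.58, -0.50 and 2.92 on hydroxyurea 1 to 4 and 1.89, 1.39, 1.79 and 1.82 on saline 1 to 4. The other 3 treated arrays were above all saline arrays and hydroxyurea 3 was far below them, so that the difference over all 8 arrays was 0.28 (SE 0.69, adjusted p = 0.838). Without hydroxyurea 3 it was 1.12 (adjusted p = 0.0183) and the probe was called higher. Hydroxyurea 3 was picked from this same value, so that call is no separate support for a rise. The probe has 1 spot. The 39 measured spots within 6 rows and 3 columns of it deviated from the mean of the other hydroxyurea arrays with an SD of 1.25 on hydroxyurea 3. The same SD, each array against the others of its group, was 0.348 to 0.816 on the other 7 arrays and had a median of 0.412 over the other member spots and arrays. It was not the highest, since around 1 of the 10 Rad52 spots it was 3.57 on hydroxyurea 3. Whether this bears on the value was not tested. The nuclease genes Mus81 and Eme1, whose products form 1 enzyme, differed by 0.02 (SE 0.22) and -0.29 (SE 0.15, adjusted p = 0.265).

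**Figure D3:**
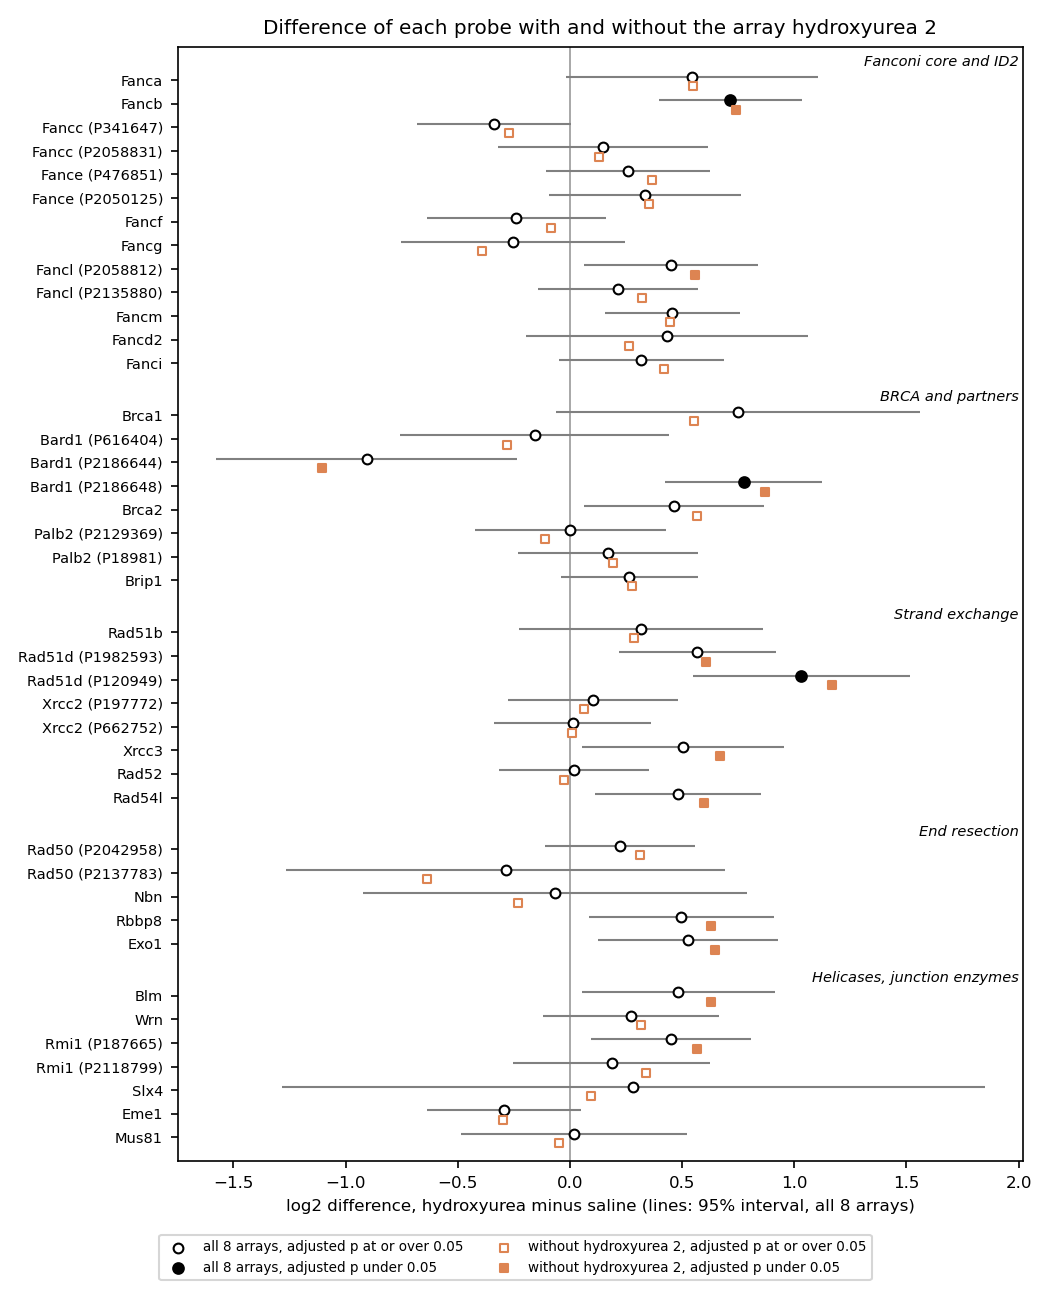
Difference of each tested probe, hydroxyurea minus saline on the log2 scale, with its 95% interval over all 8 arrays (circles) and without the array hydroxyurea 2 (squares), filled where the adjusted p is under 0.05. There are 3 filled circles, for Fancb, Bard1 and Rad51d, and 12 filled squares, of which 1, for Bard1, lies below 0.

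Of the 31 genes measured, 9 had more than 1 tested probe, which gave 10 pairs of a probe with the brightest probe of its gene. The sign differed within 4 of these pairs, 2 of Bard1 and 1 each of Fancc and Rad50. A limma test of the within-array difference, adjusted over 4458 pairs of all genes, called 0 of the 10 pairs, beside 1.14% of all pairs (0.404% with a positive and 0.74% with a negative difference), and 2 had an unadjusted p under 0.05. Both were of Bard1. Probe A_55_P2186644 changed by 1.68 less than A_55_P2186648 (log2 difference of the pair -1.68, SE 0.37, adjusted p = 0.0754; 0.0137 without hydroxyurea 2), and A_52_P616404 gave -0.93 (SE 0.34, adjusted p = 0.209). For Rad51d the pair differed by 0.46 (SE 0.21, adjusted p = 0.313), so that the larger value of A_66_P120949 was not separated from that of the other probe.

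**Figure D4:**
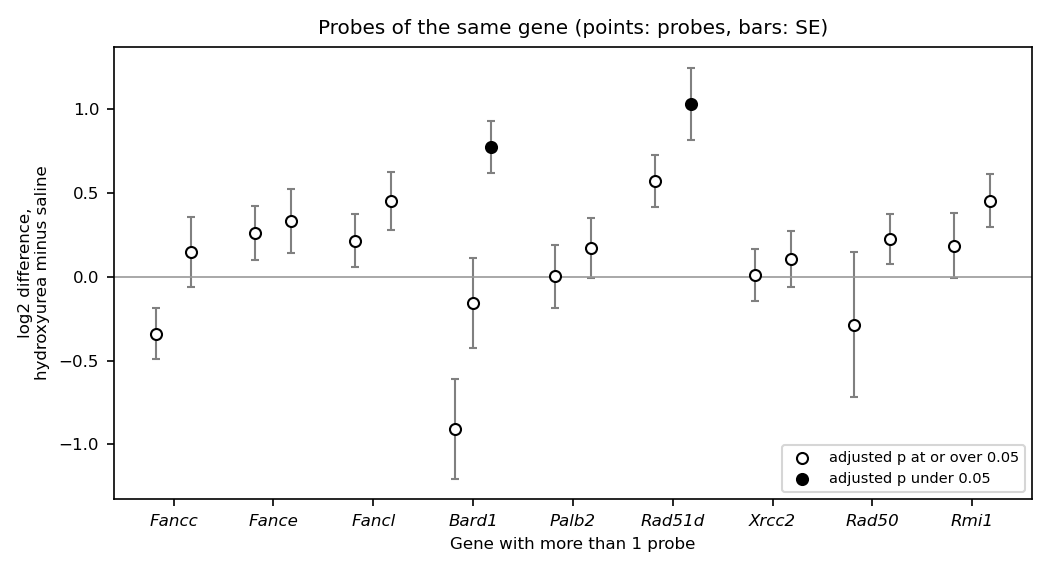
Difference of each tested probe, hydroxyurea minus saline on the log2 scale with its SE, for the 9 genes with more than 1 probe. The 3 Bard1 probes run from -0.91 to 0.77, both Rad51d probes lie above 0.5, and the probes of Fancc and of Rad50 lie on opposite sides of 0.

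Each slide held 2 arrays of each group. The median member difference was 0.24 on slide 1 and 0.34 on slide 2, and 28 of 41 probes were above 0 on both, 5 below 0 on both, 7 above 0 on slide 1 alone and 1 on slide 2 alone. With slide as a term, the called probes of Fancb, Bard1 and Rad51d stayed called (adjusted p 0.0357, 0.0369 and 0.0360). The test of whether the difference itself varied between slides called 0 of all 30759 probes, with 299 (0.972%) at an unadjusted p under 0.05, of which 0 were members. With only 2 arrays of each group on a slide this test has little power, so 0 calls do not show that the slides agreed.

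**Figure D5:**
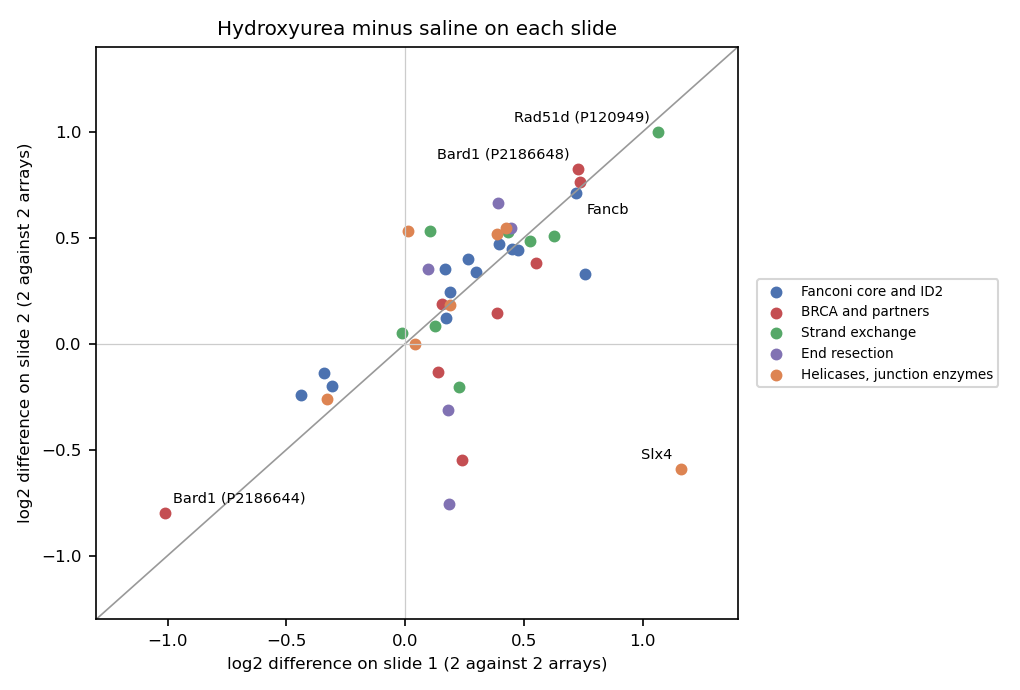
Difference of each tested probe on slide 1 (x axis) and on slide 2 (y axis), both on the log2 scale and each from 2 hydroxyurea and 2 saline arrays, coloured by role, with a line where both are equal. Fancb and the called probes of Bard1 and Rad51d lie near the line, and Slx4 lies far from it at 1.16 and -0.59.

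Other genes of the same processes, taken from 3 lists, were read the same way. Over all tested probes 2.52% were called higher and 4.29% lower. At an unadjusted p under 0.05 by limma the shares were 11.4% and 13.3%. Of 19 tested probes of 17 other Fanconi genes 0 were called higher and 1 lower (2 and 1 at an unadjusted p under 0.05 by limma), with a median difference of 0.00. The 1 was Wdr48, which activates the enzyme that removes ubiquitin from FANCD2. It read 0.95, 1.1, 1.07 and 0.94 on hydroxyurea against 1.48, 1.64, 1.86 and 1.67 on saline, a fall of 0.65 on the log2 scale (SE 0.14, adjusted p = 0.0292).

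Of 51 tested probes of other homologous recombination genes 3 (5.88%) were called higher and 1 lower, beside 2.52% and 4.29% of all probes. The median difference was 0.19. At an unadjusted p under 0.05 by limma, 12 of the 51 were higher and 1 lower, beside 11.4% and 13.3% of all probes. In this list 78.4% of probes were above 0, close to the 80.5% of the member probes. The share was 47.4% for the other Fanconi list, 67.7% for the end joining list below and 52.2% for all tested probes. Dna2, a nuclease and helicase of end resection, has 2 tested probes. Probe A_52_P513123 read 2.46, 2.07, 2.16 and 2.07 against 1.46, 1.01, 1.01 and 0.77. Its groups were far apart, the difference was 1.13 (SE 0.19, adjusted p = 0.00895), and the call held in 18 of 20 alternative settings, all but the single slides. The other, A_52_P437201, well above background on 6 arrays, differed by 0.47 (SE 0.40, adjusted p = 0.502) with overlapping groups. Rad51ap1, an accessory factor of strand exchange, rose by 0.80 (SE 0.16, adjusted p = 0.0227), and 1 of 2 probes of the damage kinase gene Atm rose by 0.66 (SE 0.14, adjusted p = 0.0267). The second Atm probe differed by 0.53 (SE 0.30, adjusted p = 0.314). Parpbp, an inhibitor of homologous recombination, fell by 0.72 (SE 0.14, adjusted p = 0.0156). The calls on Wdr48, Rad51ap1, Atm and Parpbp were lost with median centring and when certain single arrays were left out, 6, 7, 6 and 2 arrays respectively.

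End joining, the other route of break repair, had 31 tested probes with a median difference of 0.14. Of these, 1 (3.23%) was called higher and 0 lower, beside 2.52% and 4.29% of all probes. At an unadjusted p under 0.05 by limma, 8 of the 31 were higher and 2 lower, beside 11.4% and 13.3% of all probes. The called probe belonged to Shld2, a subunit of the shieldin complex that limits resection. It read 1.48, 0.47, 1.42 and 1.27 against -0.24, 0.33, 0.30 and 0.08, a difference of 1.04 (SE 0.25, adjusted p = 0.0390) that lost its call with slide as a term and without any 1 of 7 arrays, the exception being hydroxyurea 2. The second Shld2 probe differed by 0.64 (SE 0.19, adjusted p = 0.0734), with no overlap.

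Markers of other tissues differed between the groups or between arrays. The summed signal of 6 trophoblast markers, on the scaled log2 scale, was 4.75, 4.50, 3.52 and 5.25 on hydroxyurea 1 to 4 and 3.09, 2.22, 3.02 and 5.10 on saline 1 to 4, so that every treated array lay above all saline arrays but saline 4. The median difference of the 5 tested markers was 0.91, Ascl2 was called higher at 0.91 (SE 0.20, adjusted p = 0.0290), and Tpbpa was above background on 0 arrays. The summed signal of 7 decidua markers was 4.26, 4.31, 6.34 and 4.00 on hydroxyurea 1 to 4 and 3.62 to 4.02 on the saline arrays, so that only hydroxyurea 4 lay within the saline range, with a median difference of 0.21 and 0 called. That of 5 measured adult blood markers was 2.13 to 3.73 on hydroxyurea, with hydroxyurea 2 at 3.73 and hydroxyurea 3 at 3.48, and 2.14 to 2.42 on saline, and Lyz2 and S100a8 were above background on 0 arrays. The 9 yolk sac endoderm markers summed to 4.18 to 6.53 on hydroxyurea and 4.38 to 8.09 on saline, with a median difference of -0.77 and 0 called. Primitive erythroid markers spanned 10.5 to 11.3 and 10.5 to 11.1. Of the 15 tested markers of embryonic tissues Tbx5 and Sox10 were called lower, at -0.77 and -0.78 (adjusted p 0.0385 and 0.0169), and the median was -0.16. Their part in the member differences was not tested. Without hydroxyurea 3, the array with the highest decidua sum, the called probes of Fancb, Bard1 and Rad51d were at 0.71, 0.80 and 1.13. They stayed called in limma, at adjusted p values of 0.0494, 0.0440 and 0.0300. Each of these calls was lost without hydroxyurea 1 or without hydroxyurea 4, the treated arrays with the highest trophoblast sums. Each was equally lost without saline 1 or without saline 3, whose trophoblast sums were 3.09 and 3.02.

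The authors' deposited table of 1346 differentially expressed probes lists 3 member probes, the same ones called here. In the authors' deposited table the group means differ by 0.71 for Fancb, 0.77 for Bard1 probe A_55_P2186648 and 1.03 for Rad51d probe A_66_P120949. The table was made from these arrays and is no independent measurement.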

How the data were processed

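RNA of 8 whole-embryo samples was read on one-colour arrays. The deposited scanner files hold Cy3 intensity values made with Agilent Feature Extraction 11.5.1.1, per the submitters' processing notes and the file headers, with background subtracted and arrays not scaled to each other. The authors' deposited table holds log2 values with every row's median at 0. Its group differences matched those of the scanner values with a slope of 1, and no source used here gives its normalization or test.

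Outlier and control spots were left out, 0 spots were saturated, spots of a probe were averaged as log2 of the processed signal, and each array's 75th percentile was subtracted. Probes well above background on at least 4 of 8 arrays were kept, 30759 in all. RefSeq accessions gave a symbol to 26576 probes and none to 29105. The test was limma (version 3.58.1, under R 4.3.3; lmFit and eBayes), two-sided, with Benjamini-Hochberg adjustment over all tested probes and a threshold of 0.05. Groups came from the labels, and replicate numbers are only names. The fit was tested on simulated data. The number of arrays limits the precision.

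Alternatives changed the background correction, scaling, filter, slide, array position, variance model and probe choice, or left out each array. The normexp alternative (offset 50) used median signals, as the files used here hold no mean signals. Every member was named, with called genes of 3 further lists of the same processes. The members and lists were chosen with earlier results of these data known.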

Additional observations from a re-analysis of the deposited data

Results flagged for a closer look

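In 94 groups of 4 arrays, for 47 member and other named probes, 5 had an array whose gap to the nearest other array, as a share of the group's range, passed Dixon's 95% critical value. Chance gives about 1 in 20 groups. The Slx4 probe stood at -0.50 on hydroxyurea 3, with the nearest treated array at 2.58. The Fancf probe stood at 0.93 on hydroxyurea 2, with the next at 1.48. The Brip1 probe stood at -1.61 on hydroxyurea 1, only 0.14 above the next array at -1.75, in a group that otherwise spanned -1.76 to -1.75. The Xrcc3 probe stood at 1.36 on saline 3, against 1.13 for the next saline array. Wrn probe A_55_P2160862 stood at -1.22 on hydroxyurea 4, against -1.60 for the next.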

How the results depend on the processing

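With 4 arrays a group, only the larger member differences could pass the threshold, and 38 of 41 probes gave intervals rather than calls. The member median stayed between 0.23 and 0.39 in the settings run, and 29 to 35 member probes were above 0. The 3 member calls became 5 with quantile normalization, by Fancm and the second Rad51d probe. Calls higher over all probes also rose in that setting, from 776 to 1086. The member calls became 0 with no filter on dim probes or on a single slide. There, limma gave 10, 3 and 4 member probes higher at an unadjusted p under 0.05 (no filter, slide 1, slide 2). The shares of all probes were 6.38%, 3.63% and 5.94%. Leaving out single arrays gave 0 to 11 higher and 0 to 1 lower member calls, and 0 to 1 member pairs. Over all probes, calls higher were 278 with no filter, 25 on slide 1 and 0 on slide 2 (1828 unadjusted), and 258 to 2214 when single arrays were left out. Calls lower were 633, 27 and 3, then 786 with the brightest probe and 831 with the mean of the probes of a gene, and 605 to 2647 when single arrays were left out. Probe pairs of all genes called were 2 with no filter, 2 with slide as a term, and 2 to 439 when single arrays were left out. Signs that turned belonged to probes that were not called, apart from Bard1 probe A_55_P2186648, at -0.10 with the mean of the gene's probes, where Rad50 was at -0.0307. On slide 1 alone Bard1 probe A_52_P616404 was at 0.24, Rad52 at -0.012, Rad50 probe A_55_P2137783 at 0.18 and Nbn at 0.18, and with median centring Nbn was at 0.0514. On slide 2 alone Palb2 probe A_55_P2129369 was at -0.13, Xrcc2 probe A_52_P662752 at -0.21, Slx4 at -0.59 and Mus81 at -0.0012. When single arrays were left out, the ranges were -0.32 to 0.0603 (Bard1 A_52_P616404), -0.11 to 0.10 (Palb2), -0.0031 to 0.19 and -0.0553 to 0.10 (Xrcc2), -0.0391 to 0.077 (Rad52), -0.64 to 0.0092 (Rad50), -0.43 to 0.14 (Nbn), -0.0562 to 1.12 (Slx4) and -0.12 to 0.15 (Mus81), and for pairs -0.0274 to 0.17 (Fance) and -0.16 to 0.0284 (Xrcc2). The cause of these changes was not tested. No paired analysis was possible because the labels give no replicate numbers that pair the samples. Naming probes by a gene name column was not run, as the scanner files used here have none.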
